A study of Mus musculus with 10 samples.

Results

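The 48 genes described here encode the machinery that copies DNA in S phase, together with the enzymes that supply its nucleotides, restore DNA methylation behind it and set its entry. They were taken by symbol from a fixed list, and all 48 of 48 were among the 16338 genes of the RNA table and, having a mean above the minimum of 10 normalized counts, among the 14324 genes tested. Tissue was the cortical midline of C57/Bl6 mouse embryos on embryonic day 14.5. RNA-seq compared 2 libraries of conditional knockout midline (cKO, labelled Rcor2f/f/EMX1-iCRE, with both Rcor2 alleles floxed and the Cre transgene) with 2 libraries of control midline (labelled Rcor2f/f, with both alleles floxed and no Cre). Both groups therefore carry the floxed alleles. ChIP-seq in wild-type midline used 2 libraries with an antibody to Rcor2, 2 with rabbit IgG and 2 of input chromatin. Emx1-driven Cre acts in progenitors of the dorsal telencephalon and their progeny, so cells that migrate in from ventral regions, vessels and meninges keep the gene. The labels give neither the floxed exons nor litters or pooling, and p-values measure only the spread between these libraries. Rcor2 is a co-repressor of the CoREST family, and the comparison asks which transcripts differ when it is deleted.

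Replication starts in G1, when the origin recognition complex, with Cdc6 and Cdt1, loads the Mcm2 to Mcm7 helicase onto DNA in an inactive form. At the onset of S phase the kinase Cdc7 and Mcm10, Cdc45 and the GINS complex turn the helicase on, and polymerases alpha, delta and epsilon copy the strands behind it. Most of these genes are known targets of E2F transcription factors. In the embryonic cortex many of them, though not all, are used by the cycling radial glia and intermediate progenitors and lowered in postmitotic neurons.

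Depth was 28309925 and 29783893 reads over genes in the cKO libraries and 30270598 and 27674987 in the control libraries. Rcor2 itself had 6363 and 6840 normalized counts (reads divided by 1 factor per library) in cKO midline and 7901 and 7257 in control midline, a log2 change of -0.20 (SE 0.057) with a limma adjusted p of 0.0541 that did not pass 0.05. In the authors' deposited table its adjusted p was 0.0444, and the change is small in both, so RNA level gives a weak check of the genotype labels; the table does not separate deleted from other exons. Replicate 1 of each genotype was low in Xist (49.4 normalized counts in the cKO and 23.4 in the control) and replicate 2 high (21449 in the cKO and 20334 in the control), so replicate number went with sex in both groups. The cKO replicate 1 stood apart in fibroblast genes: the summed normalized count of 8 mesenchyme and meninges markers was 9112 there, 2477 in cKO replicate 2, and 2051 and 1840 in the controls.

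Part of the replication genes rose in Rcor2 cKO midline, by small amounts, and none fell. Of the 48 genes, 24 rose at a limma adjusted p under 0.05 and 0 fell, whereas over all tested genes 6.16% rose and 8.29% fell. The 24 that rose did so by 1.14-fold to 1.36-fold. The median log2 change of the 48 was 0.23, against -0.01 over all tested genes. Of the 48 changes 44 were positive, against 6772 of 14324 over all tested genes. In 39 of 48 members both cKO libraries lay above both controls, which held for 27.7% of tested genes, and in 1 member, Orc5, both lay below, which held for 33.3%. Members are well expressed, and among the 10337 genes with a mean at or above the lowest member's, 7.29% rose and 27.5% had both cKO libraries above both controls. At an unadjusted p under 0.05, 32 members were higher and 0 lower with limma, against 13.0% and 17.1% of tested genes. The counts were 33 higher and 0 lower with edgeR (14.6% and 15.0% of tested genes) and 29 higher and 0 lower with DESeq2 (9.83% and 10.5%). Together the 48 genes took 0.478% and 0.455% of reads in the cKO libraries and 0.391% in each control.

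Whether a member passed went with its count as well as its change. The 24 that rose had a median count of 3358 normalized counts and a median standard error of 0.053 on the log2 scale, and the 24 that did not pass 1162 and 0.065. Of those 24, 15 also had both cKO libraries above both controls, and Pold3, Rfc5, Pole2, Cdc45 and Pola2 missed the threshold narrowly (limma adjusted p 0.0524, 0.0531, 0.0558, 0.0587 and 0.0589). With edgeR on recovered reads 24 of 48 rose, against 5.69% of tested genes; 23 of these are among the 24, with Pold3 gained and Prim1 lost. Of the 48, 23 were higher in the authors' deposited table at an adjusted p under 0.05, against 5.93% of the genes with an adjusted p, and Prim1 was the member lost (authors' adjusted p 0.0809).

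The calls rest on both controls. With control replicate 1 left out, Rrm2 alone of the members passed, and with control replicate 2 left out, Mcm6 alone, because the spread then came from the 2 cKO libraries. Over all tested genes 0.44% and 0.405% rose in these fits; the median log2 change stayed at 0.21 and 0.22. The members were further apart within the cKO than within the controls, with a median absolute log2 difference between the libraries of 0.0688 and 0.0435 (over all tested genes 0.0928 and 0.0756). In 38 of 48 members cKO replicate 1, the library with the fibroblast genes, was above cKO replicate 2, which held for 6882 of the 14324 tested genes. Without it 17 members rose, against 3.83% of tested genes, and E2f1, Mcm4, Mcm7, Pcna, Pold1, Prim1 and Rpa1 no longer passed; cKO replicate 2 alone had a median log2 difference of 0.19 from the controls, and replicate 1 alone 0.25. Without cKO replicate 2, 31 members rose, against 10.7% of tested genes.

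**Figure D1:**
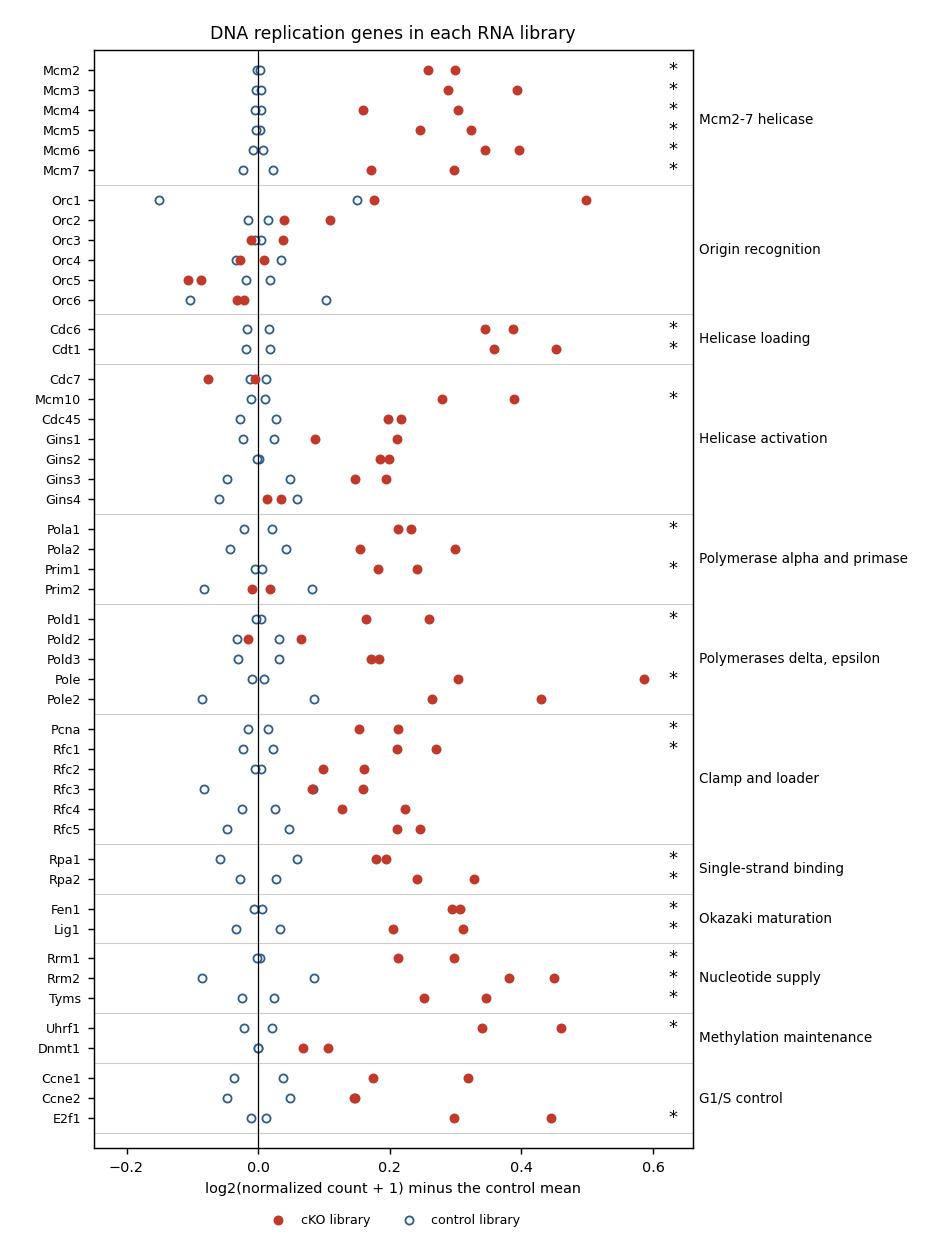
Each row is a replication gene, grouped by role; the horizontal axis is log2(normalized count + 1) in each library minus the mean of the 2 controls, with filled points for cKO libraries and open points for control libraries, and a star marks a limma adjusted p under 0.05. The filled points lie right of both open points in 39 of 48 rows, while 4 of the 6 origin recognition rows have filled points among or left of the open ones.

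All 6 subunits of the replicative helicase rose. Mcm6 had 7956 and 7677 normalized counts in cKO midline, against 6013 and 6074 in control midline (log2 change 0.37, SE 0.044, limma adjusted p 0.00429). Mcm3 had 5539 and 5154 in cKO midline and 4209 and 4230 in control midline (log2 0.34, SE 0.050, limma adjusted p 0.0069). In both genes the lower cKO library was well above the higher control. Mcm2, with 5702 and 5545 in the cKO and 4628 and 4641 in the controls, changed by 0.28 on the log2 scale (SE 0.043, limma adjusted p 0.00778). Mcm5 changed by as much, with 5355 and 5077 in the cKO and 4291 and 4272 in the controls (log2 0.28, SE 0.047, limma adjusted p 0.00872). The 2 subunits with the smallest changes were those that did not pass without cKO replicate 1. For Mcm4 the values were 5062 and 4580 in the cKO and 4115 and 4088 in the controls (log2 0.23, SE 0.056, limma adjusted p 0.0296). For Mcm7 they were 7343 and 6730 in the cKO and 5880 and 6069 in the controls (log2 0.23, SE 0.053, limma adjusted p 0.024). Summed over the helicase, the cKO libraries held 36957 and 34763 normalized counts and the controls 29137 and 29375. The cKO libraries do not overlap the controls in any of the 6.

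The factors that place the helicase rose with it, but the origin recognition complex did not pass. Cdt1, which brings the helicase to the origin, had 1283 and 1202 normalized counts in cKO midline, against 925.5 and 949.2 in control midline (log2 0.41, SE 0.064, limma adjusted p 0.00791). Cdc6, the ATPase that joins the origin recognition complex for loading, had 935.8 and 908.2 in the cKO and 707.0 and 723.2 in the controls (log2 0.37, SE 0.066, limma adjusted p 0.0114). Of Orc1 to Orc6, 0 of 6 rose or fell with limma, edgeR or DESeq2, and 0 had an unadjusted p under 0.05 with any of the 3; the median log2 change was 0.00. Orc2, the most abundant by count, had 3010 and 2868 in the cKO and 2761 and 2819 in the controls (log2 0.07, SE 0.049, limma adjusted p 0.35). Orc5 had 887.4 and 875.0 in the cKO and 930.3 and 954.6 in the controls (log2 -0.10, SE 0.063, limma adjusted p 0.345), the 1 member with both cKO libraries below both controls. Orc3, Orc4 and Orc6 had log2 changes of 0.01, -0.01 and -0.03, with cKO and control libraries overlapping. Orc1, the largest subunit, had the lowest count of all members and the widest error (SE 0.15). Its values were 300.3 and 239.8 in the cKO and 191.1 and 235.7 in the controls (log2 0.34, limma adjusted p 0.181), and it passed without cKO replicate 2 (log2 0.50, limma adjusted p 0.038). Whether the origin recognition genes differ from the helicase genes was not tested.

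Among the 7 factors that activate the helicase, 1 rose. Mcm10, which is needed to start unwinding, had 1403 and 1300 normalized counts in cKO midline, against 1079 and 1063 in control midline (log2 0.33, SE 0.063, limma adjusted p 0.0127). Cdc45, the helicase cofactor, had a log2 change of 0.21 (SE 0.061, limma adjusted p 0.0587) and passed after TMM scaling (limma adjusted p 0.0493) and quantile normalization (limma adjusted p 0.0484). The GINS subunits, which hold Cdc45 to the helicase, had log2 changes of 0.15 (Gins1), 0.19 (Gins2), 0.17 (Gins3) and 0.02 (Gins4), and none passed. Gins2, for which 2 distal ChIP peaks were named, had 443.2 and 447.3 in the cKO and 390.1 and 389.2 in the controls (SE 0.085, limma adjusted p 0.172). Its groups are apart, but with an error of that size the change fell short of the threshold. The kinase gene Cdc7 had a log2 change of -0.04 (SE 0.058, limma adjusted p 0.68), with overlapping libraries.

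Of the 4 genes of polymerase alpha and primase, which lay down the first RNA and DNA, 2 rose. Pola1, the catalytic subunit, had 2933 and 2892 normalized counts in cKO midline and 2459 and 2533 in control midline (log2 0.22, SE 0.047, limma adjusted p 0.0193). It lies on the X chromosome, and in each genotype its 2 libraries, which differ in sex, were within 0.042 of each other on the log2 scale. Prim1, the small primase subunit, had 1671 and 1604 in the cKO and 1409 and 1419 in the controls (log2 0.21, SE 0.054, limma adjusted p 0.0372), and lost the call with edgeR (adjusted p 0.0645). Pola2 had a log2 change of 0.23 (SE 0.068) and Prim2, the large primase subunit, 0.00 (SE 0.069), with the 2 cKO libraries between the 2 controls.

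The polymerases that extend the strands were led by Pole, the catalytic subunit of leading-strand polymerase epsilon. Pole had the largest log2 change of the 48, with 4088 and 3361 normalized counts in cKO midline and 2739 and 2705 in control midline (log2 0.45, SE 0.083, limma adjusted p 0.0124). The 2 cKO libraries are far apart here, the difference from the controls being 0.59 in replicate 1 and 0.30 in replicate 2. Pold1, the catalytic subunit of lagging-strand polymerase delta, had 2615 and 2447 in the cKO and 2191 and 2179 in the controls (log2 0.21, SE 0.053, limma adjusted p 0.0334). Pold3, an accessory subunit of delta, had 2213 and 2193 in the cKO and 1906 and 1990 in the controls (log2 0.18, SE 0.051, limma adjusted p 0.0524) and passed with edgeR (adjusted p 0.0409). Pole2 had a log2 change of 0.35 (SE 0.10) that did not pass, and Pold2 one of 0.02 with overlapping libraries.

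The sliding clamp and 1 of its 5 loader subunits passed. Pcna, the clamp that tethers the polymerases, had 5291 and 5080 normalized counts in cKO midline and 4615 and 4520 in control midline (log2 0.18, SE 0.045, limma adjusted p 0.0326). Rfc1, the large loader subunit, had 3862 and 3707 in the cKO and 3152 and 3251 in the controls (log2 0.24, SE 0.048, limma adjusted p 0.0152). Rfc5 had 1073 and 1047 in the cKO and 875.7 and 935.1 in the controls (log2 0.23, SE 0.065, limma adjusted p 0.0531). The groups are apart in all 3. Rfc2, Rfc3 and Rfc4 had log2 changes of 0.13, 0.12 and 0.17 that did not pass. Of the single-strand binding protein, both subunits among the members, Rpa1 and Rpa2, rose. Rpa3, measured outside the members, did not pass, and its libraries overlapped. It had 482.3 and 549.1 in the cKO and 555.9 and 524.3 in the controls (log2 -0.07, SE 0.092, limma adjusted p 0.661). Rpa2 had 1937 and 1825 in the cKO and 1515 and 1573 in the controls (log2 0.28, SE 0.057, limma adjusted p 0.0155). Rpa1 had 4762 and 4812 in the cKO and 4039 and 4379 in the controls (log2 0.19, SE 0.052, limma adjusted p 0.047).

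Both enzymes that finish Okazaki fragments rose, and so did all 3 that make DNA precursors. Fen1, the flap nuclease, had 2431 and 2454 normalized counts in cKO midline and 1992 and 1974 in control midline (log2 0.30, SE 0.048, limma adjusted p 0.00813). Lig1, the ligase that seals the nicks, had 2960 and 2749 in the cKO and 2329 and 2441 in the controls (log2 0.26, SE 0.056, limma adjusted p 0.0202). For Fen1 the 2 libraries of each group were nearly equal. Rrm2, the regulated subunit of ribonucleotide reductase, had 5068 and 4835 in the cKO and 3938 and 3500 in the controls (log2 0.41, SE 0.062, limma adjusted p 0.00729). Rrm1, its large subunit, had 9671 and 9122 in the cKO and 7884 and 7858 in the controls (log2 0.25, SE 0.046, limma adjusted p 0.0115). Tyms, which makes thymidylate, had 1854 and 1736 in the cKO and 1483 and 1433 in the controls (log2 0.30, SE 0.058, limma adjusted p 0.0142). In each of these 5 genes the lower cKO library was above the higher control.

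The partners that copy DNA methylation differed in size of change. Uhrf1, which recognizes hemimethylated DNA behind the fork, had 5635 and 5188 normalized counts in cKO midline and 4039 and 4158 in control midline (log2 0.40, SE 0.053, limma adjusted p 0.00568). Dnmt1, the methyltransferase it recruits, had 13377 and 13020 in the cKO and 12419 and 12427 in the controls (log2 0.09, SE 0.043, limma adjusted p 0.212). Dnmt1 has the highest count of the 48 and one of the smallest errors, and its groups are apart, but its change did not pass. Of the 3 genes that govern entry into S phase, E2f1 rose, with 674.6 and 608.8 in the cKO and 491.5 and 499.4 in the controls (log2 0.37, SE 0.084, limma adjusted p 0.0238). The cyclin genes Ccne1 and Ccne2, whose products activate the kinase Cdk2, had log2 changes of 0.25 (SE 0.084) and 0.15 (SE 0.064) that did not pass, with the cKO libraries above the controls in both.

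Other replication genes gave counts close to these. Of 48 listed outside the members, 21 rose and 1 fell (median log2 0.20), and the change of 26 missed the threshold; without control replicate 1 or control replicate 2, 0 rose (22 and 27 higher at an unadjusted p under 0.05 with limma), without cKO replicate 1, 12 rose, and the 1 fall, Rrm2b, did not pass with edgeR, DESeq2, TMM scaling or quantile normalization. The rises with the smallest adjusted p were in E2f2, an activating E2F factor (log2 0.48, SE 0.079, limma adjusted p 0.00872), and Exo1, an exonuclease (log2 0.39, SE 0.065, limma adjusted p 0.00895). Timeless and Clspn, which protect moving forks, followed (log2 0.33, SE 0.055, and 0.31, SE 0.054, limma adjusted p 0.00907 and 0.0103). Rrm2b, the p53-induced alternative to Rrm2, had 570.7 and 632.2 normalized counts in cKO midline and 734.3 and 729.7 in control midline (log2 -0.28, SE 0.079, limma adjusted p 0.0477). Within ribonucleotide reductase, then, the counts of the S-phase small subunit were higher in the cKO. Those of the p53-induced one were lower in both cKO libraries, but this fall did not pass in the authors' deposited test (adjusted p 0.174).

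Many mitosis and progenitor genes were also higher in the cKO, and neuronal genes lower. Of 20 mitosis genes, 15 rose and 0 fell (median log2 0.25; at an unadjusted p under 0.05, 20 higher and 0 lower with both limma and edgeR). Of 15 radial glia markers, 8 rose and 0 fell (median 0.20, with 9 higher and 0 lower unadjusted), led by Id4, Hes5 and Sox2. Of the 15 changes 11 were positive and 4 negative (Slc1a3 -0.06, Cdh2 -0.06, Ednrb -0.15 and Hopx -0.03). Vim, Nes and Fabp7 had log2 changes of 0.16, 0.09 and 0.07 that did not pass. Of 8 intermediate progenitor markers 4 rose and 1 fell (median 0.18). The fall was in Insm1 (log2 -0.21, limma adjusted p 0.0425), and Eomes did not pass (log2 0.04). Of 15 neuron markers, 13 fell and 0 rose (median -0.41; 15 lower and 0 higher unadjusted), led by Mapt, Stmn2 and Snap25. Without cKO replicate 1, 9 mitosis genes, 6 radial glia markers and 3 intermediate progenitor markers rose and 11 neuron markers fell. When either control was left out, all calls of mitosis and intermediate progenitor genes and most calls of radial glia and neuron markers were lost. In the order mitosis, radial glia, intermediate progenitor and neuron, the median log2 changes were 0.22, 0.17, 0.20 and -0.46 without control replicate 1. Without control replicate 2 they were 0.28, 0.23, 0.18 and -0.42. Without cKO replicate 2, 19 mitosis genes rose. In bulk tissue, more cells of a type and more RNA per cell cannot be told apart. The summed normalized counts of the 48 members were set against those of each list in the same library. The ratio to mitosis genes was 1.3 and 1.33 in the cKO libraries and 1.39 and 1.32 in the controls, which overlap. The ratio to radial glia markers was 0.922 and 0.901 in the cKO and 0.865 and 0.878 in the controls, and that to intermediate progenitor markers 3.80 and 3.62 in the cKO and 3.44 and 3.47 in the controls. These 2 ratios do not overlap between the groups, with cKO means 1.05 and 1.07 times those of the controls, whereas the ratio to neuron markers was 1.00 and 0.881 in the cKO and 0.598 and 0.601 in the controls. Sums weigh abundant genes most. In cKO replicate 1, Vim and Nes gave 42331 and 26761 of the 150800 counts of the radial glia list. Eomes gave 13456 of the 36647 of the intermediate progenitor list. Whether the members rose by more than these lists was not tested.

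Markers of cells outside the cortical lineage gave mixed values. Of 7 tested mesenchyme and meninges markers 2 rose, Col1a1 and Dcn, with the difference mostly in cKO replicate 1. The median of the log2 differences from the controls was 0.14 in cKO replicate 2. Fewer rose without cKO replicate 1, and neither call held when either control was left out. The median log2 change was then 1.54 (without control replicate 1) and 1.42 (without control replicate 2). Without cKO replicate 2, 6 of the 7 rose. With edgeR 1 rose, with DESeq2, the authors' test and quantile normalization 0 did (3, 3 and 4 higher at an unadjusted p under 0.05), and with a replicate block 3 did. Of 8 endothelial markers 0 rose and 0 fell with limma (0 higher and 2 lower unadjusted; 0 and 1 with edgeR), with summed counts of 4216 and 3998 in the cKO and 4329 and 4510 in the controls. Of 8 microglia markers 0 rose and 0 fell with limma (0 unadjusted, also with edgeR), with sums of 1466 and 1485 in the cKO and 1661 and 1521 in the controls. Of 7 tested erythroid markers 0 rose and 2 fell, Alas2 and Slc4a1 (5 with a replicate block), with sums of 1030 and 1621 in the cKO and 1900 and 2707 in the controls. Of 8 tested interneuron markers 0 rose and 4 fell, and of 5 tested choroid plexus markers 2 rose, Otx2 and Folr1. Of these 5 choroid plexus changes 4 were positive and 1, that of Ttr, negative. Ttr, at low counts, had 9.26 and 5.87 in the cKO and 19.5 and 14.05 in the controls (log2 -1.07, SE 0.42, limma adjusted p 0.128). Summed counts of the interneuron list were 1339 and 1406 in the cKO and 2103 and 2224 in the controls, and of the choroid plexus list 499 and 490 in the cKO and 338 and 357 in the controls. Without a control these counts, too, fell to 0 or 1, and without cKO replicate 2, 6 erythroid markers fell. No defining marker of mesenchyme, endothelium, microglia or erythroid cells that the table holds was at 0 in any library. The part of these cells in the replication result was not tested; without cKO replicate 1, the library rich in mesenchyme markers, the members' median log2 change was 0.19.

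**Figure D2:**
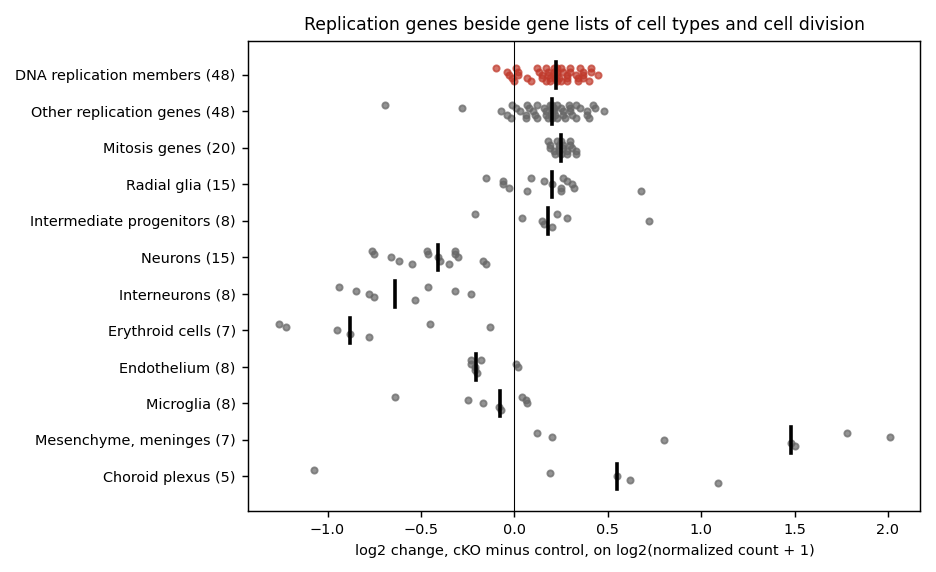
Each point is the log2 change (cKO minus control, on log2(normalized count + 1)) of a tested gene, in rows by list with the number of genes in brackets; vertical bars are medians. The medians of the replication, mitosis, radial glia and intermediate progenitor lists lie between 0.18 and 0.25, and that of neuron markers at -0.41.

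RefSeq promoters (GRCm38.p6, 300 bases, 250 before to 50 after the start site) were found for 40 of 48 members, in 52 entries, since some genes have several start sites. The only entries of E2f1 and Rfc1 start at 154569426 and 65335639, inside gene bounds that end at 154569892 and 65338617. The upstream ends of these minus-strand genes were therefore not searched. E2F factors are known to bind sites close to the word TTCCCGC, the word TTGGCGC, the word TTGCCGC or the word TTCGCGC, and these 4 words of 7 letters were searched on both strands, as was the stricter form with a further T in front of each. A match is a description of letters and not of binding. Any of the 4 words stood in 57.7% of member entries, against 9.57% of all 32851 promoters, and the stricter 8-letter form in 32.7%, against 2.26%. By gene, 26 of 40 members had a 7-letter match and 17 of 40 (42.5%) an 8-letter match, against 19.4% and 4.57% of the 10915 tested genes with a promoter. An 8-letter match stood in 10 of the 22 genes that rose and in 7 of the 18 that did not pass; the difference was not tested. CCAAT, the box read by NF-Y, stood in 53.8% of member entries and 37.4% of all promoters, and TTTGAA, the element of late cell cycle genes, in 15.4% and 17.9%. Among entries of tested genes the shares were 37.5% for CCAAT and 11.7% for TTTGAA, so that for TTTGAA the members' share lay below that of all promoters and above that of tested genes. The 7-letter words lie inside the 8-letter form, and CCAAT can overlap the reverse of TTGGCGC.

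The 6 promoters below belong to the members with the smallest adjusted p that have an entry, Mcm6, Uhrf1, Mcm3, Rrm2, Mcm2 and Cdt1. They are shown 5′ to 3′ along the gene, with 7-letter E2F words of either strand in capitals. Mcm6 is on the minus strand at chr1:128359656-128359955, Uhrf1 on the plus strand at chr17:56303087-56303386, Mcm3 on the minus strand at chr1:20820263-20820562, Rrm2 on the plus strand at chr12:24708004-24708303, Mcm2 on the minus strand at chr6:88898731-88899030 and Cdt1 on the plus strand at chr8:122567765-122568064.
Mcm6: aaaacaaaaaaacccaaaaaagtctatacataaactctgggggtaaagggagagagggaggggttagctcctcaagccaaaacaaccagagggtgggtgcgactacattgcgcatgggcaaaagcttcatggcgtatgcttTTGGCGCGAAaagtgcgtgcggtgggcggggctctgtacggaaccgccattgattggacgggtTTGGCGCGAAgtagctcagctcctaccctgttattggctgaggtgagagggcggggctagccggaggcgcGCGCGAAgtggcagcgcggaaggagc
Uhrf1: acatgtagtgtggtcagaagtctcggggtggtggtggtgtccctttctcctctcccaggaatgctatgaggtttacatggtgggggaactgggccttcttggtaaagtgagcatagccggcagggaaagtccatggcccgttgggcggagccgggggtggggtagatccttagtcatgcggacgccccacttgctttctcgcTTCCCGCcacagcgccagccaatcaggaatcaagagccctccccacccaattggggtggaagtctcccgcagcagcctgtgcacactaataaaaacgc
Mcm3: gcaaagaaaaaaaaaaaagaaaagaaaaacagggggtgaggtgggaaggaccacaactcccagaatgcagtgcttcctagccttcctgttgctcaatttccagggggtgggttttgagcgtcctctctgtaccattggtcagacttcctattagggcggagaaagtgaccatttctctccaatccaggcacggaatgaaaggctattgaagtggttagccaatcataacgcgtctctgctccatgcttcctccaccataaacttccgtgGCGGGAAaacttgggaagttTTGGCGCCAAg
Rrm2: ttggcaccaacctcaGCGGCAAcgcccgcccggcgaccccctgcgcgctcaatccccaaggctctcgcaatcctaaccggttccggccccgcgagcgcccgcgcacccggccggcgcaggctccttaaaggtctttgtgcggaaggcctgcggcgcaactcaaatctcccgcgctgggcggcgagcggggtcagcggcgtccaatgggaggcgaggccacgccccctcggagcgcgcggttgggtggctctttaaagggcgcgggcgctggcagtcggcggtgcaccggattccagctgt
Mcm2: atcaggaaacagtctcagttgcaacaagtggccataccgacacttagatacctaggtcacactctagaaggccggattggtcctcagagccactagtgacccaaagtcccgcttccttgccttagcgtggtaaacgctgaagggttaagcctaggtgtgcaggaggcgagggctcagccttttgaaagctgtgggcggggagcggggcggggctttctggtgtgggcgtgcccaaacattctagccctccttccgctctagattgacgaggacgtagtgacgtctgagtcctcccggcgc
Cdt1: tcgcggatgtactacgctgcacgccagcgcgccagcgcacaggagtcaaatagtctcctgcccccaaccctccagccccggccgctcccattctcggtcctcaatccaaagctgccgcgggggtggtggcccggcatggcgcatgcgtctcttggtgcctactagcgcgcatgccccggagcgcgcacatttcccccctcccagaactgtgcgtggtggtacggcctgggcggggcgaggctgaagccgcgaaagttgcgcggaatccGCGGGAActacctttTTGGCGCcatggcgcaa

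Mcm6, the helicase gene with the largest change, has 5 matches, of which 4 form 2 overlapping pairs on opposite strands upstream of the start site. Mcm3 has 3 and Cdt1 2, all in the bases after the start site. Counted from the start site as 0, Uhrf1 has 1 beginning at -48, in the window shown, which is that of 1 of its 2 start sites (the other window holds an 8-letter match beginning at -185), and Rrm2 has 1 beginning at -235. Mcm2, which also rose, has none in this window.

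**Figure D3:**
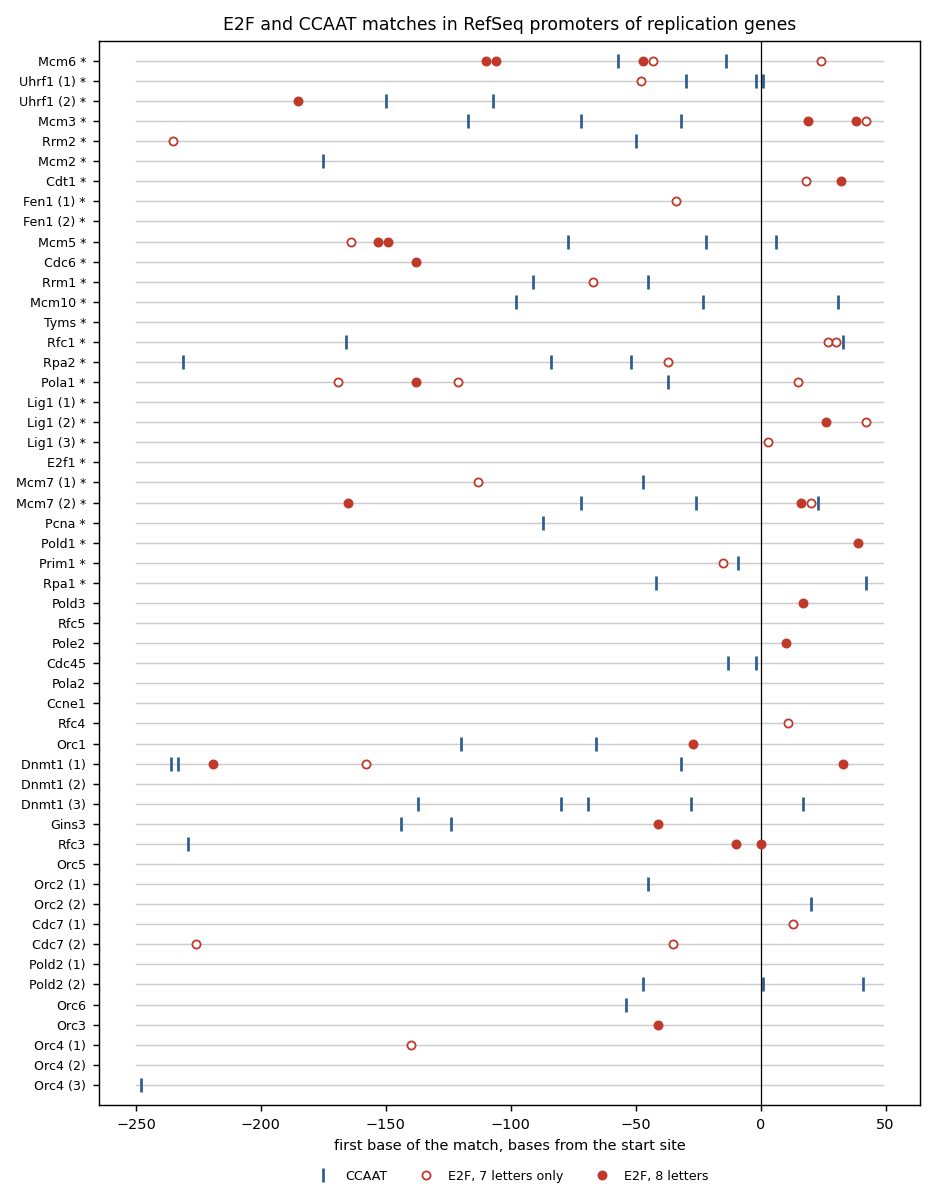
Each line is a RefSeq promoter of a replication gene from 250 bases before to 49 after the base at the start site (0), in order of adjusted p with the smallest on top; bracketed numbers are alternative start sites and a star marks genes that rose. Filled circles are 8-letter E2F matches, open circles 7-letter ones only, and bars CCAAT; E2F matches are seen in 26 of the 40 genes, both starred and unstarred.

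Rcor2 peaks were named by the authors for 10 of the 48 genes (20.8%), near the 19.4% of tested genes named for any peak. Promoter-class peaks were at 8 members (16.7%), against 8.89% of tested genes. Of the 10 members with a peak 6 rose, and of the 38 without 18 rose (47.4%); over all tested genes 11.1% of those with a peak and 4.97% of those without rose. Whether these shares differ was not tested. The 12 peaks had fold enrichments over IgG, as the authors' peak caller gave them, of 3.33 to 5.83 with a median of 3.95, close to the median of all 6995 peaks. Heights are whole numbers as deposited, and no scaling for depth is stated, so levels may also carry the depths of the libraries.

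Because the peaks were called against IgG, by their names in the deposited table, height over IgG is what chose them, and input is the control that did not. Both Rcor2 libraries were above both input libraries at 4 of 12 peaks (33.3%), against 40.3% of all peaks. The mm10 position is given for each of these. At Rfc1 (chr5:65335951-65336139, 412 bases upstream of a RefSeq start site) the heights were 12 and 20 with Rcor2, 4 and 3 with IgG and 7 and 6 in input. At Rpa2 (chr4:132767796-132768115, 466 bases upstream) they were 17 and 25 with Rcor2, 4 and 3 with IgG and 15 and 10 in input. In both, each Rcor2 library was above each input library. The peak inside Orc5 (chr5:22487022-22487212, in the gene body class) had 14 and 16 with Rcor2, 3 and 3 with IgG and 7 and 5 in input. A distal peak named for Mcm2 (chr6:88924891-88925112) had 15 and 14 with Rcor2, 5 and 2 with IgG and 11 and 8 in input. Of these 4 genes Orc5 did not pass in the cKO.

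At the other 8 peaks the Rcor2 libraries did not both lie above both inputs. At the Mcm3 start site (chr1:20820118-20820389, summit 63 bases downstream) heights were 13 and 29 with Rcor2, 4 and 3 with IgG and 20 and 21 in input. The second Rcor2 library was high and the first below input, a pattern seen again at the Mcm2 promoter (chr6:88898865-88899151, 157 bases upstream), with 10 and 23 for Rcor2, 5 and 3 for IgG and 20 and 11 for input. At Dnmt1 (chr9:20953049-20953452, 322 bases upstream of the nearest of 3 start sites) Rcor2 gave 10 and 22, IgG 6 and 3 and input 20 and 15. Rfc5 (chr5:117388579-117388778, 334 bases downstream) was alike, with 10 and 21 for Rcor2, 4 and 5 for IgG and 20 and 16 for input. Tyms (chr5:30073764-30073980, 270 bases upstream) had 10 and 17 for Rcor2, 2 and 3 for IgG and 12 and 9 for input. E2f1 (chr2:154569137-154569286) had 14 and 13 for Rcor2, 1 and 5 for IgG and 19 and 18 for input, the 1 peak of the 12 with both Rcor2 libraries below both inputs. The E2f1 summit lay 248 bases downstream of the only RefSeq start site found, at 154569426. That start site is itself inside the gene's bounds (154559400 to 154569892). Of the 2 neighbouring distal peaks named for Gins2, that at chr8:120598456-120599315 had 17 and 26 for Rcor2, 5 and 4 for IgG and 21 and 20 for input. The other, at chr8:120599408-120599613, had 8 and 17 for Rcor2, 6 and 0 for IgG and 13 and 7 for input. Peaks with 2 libraries a group allow no exact permutation p below 0.333, and no test was made.

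Peaks overlapped the printed promoter windows of Mcm3 by 127 bases and of Mcm2 by 166. The windows of Dnmt1 and Tyms, which share 181 and 112 bases with their peaks, are shown because they lie under a peak and hold no 7-letter E2F word; for Dnmt1 this is the window of 1 of 3 start sites, and the window of another holds 3 such words, 2 of them in the 8-letter form. Dnmt1 is on the minus strand at chr9:20952930-20953229 and Tyms on the minus strand at chr5:30073576-30073875, and Rpa2, whose window touches its peak by 6 bases and has 1 match in capitals, is on the plus strand at chr4:132768110-132768409. The windows of E2f1, Rfc1 and Rfc5 share no base with their peaks.
Dnmt1: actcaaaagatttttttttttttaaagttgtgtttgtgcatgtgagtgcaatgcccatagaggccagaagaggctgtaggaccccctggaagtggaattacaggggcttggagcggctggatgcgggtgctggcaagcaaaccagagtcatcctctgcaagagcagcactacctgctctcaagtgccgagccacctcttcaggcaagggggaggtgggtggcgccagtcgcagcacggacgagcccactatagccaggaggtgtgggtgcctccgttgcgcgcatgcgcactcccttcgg
Tyms: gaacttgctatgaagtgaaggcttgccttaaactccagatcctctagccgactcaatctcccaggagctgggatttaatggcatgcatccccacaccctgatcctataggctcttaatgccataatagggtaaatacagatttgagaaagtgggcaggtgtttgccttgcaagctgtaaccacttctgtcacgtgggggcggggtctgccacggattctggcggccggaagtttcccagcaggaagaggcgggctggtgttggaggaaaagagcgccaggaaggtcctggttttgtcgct
Rpa2: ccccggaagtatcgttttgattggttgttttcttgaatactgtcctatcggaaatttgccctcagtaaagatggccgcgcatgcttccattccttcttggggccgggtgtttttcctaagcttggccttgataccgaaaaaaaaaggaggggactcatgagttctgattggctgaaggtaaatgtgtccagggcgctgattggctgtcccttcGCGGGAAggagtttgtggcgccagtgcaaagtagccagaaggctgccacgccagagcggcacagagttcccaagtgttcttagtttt

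**Figure D4:**
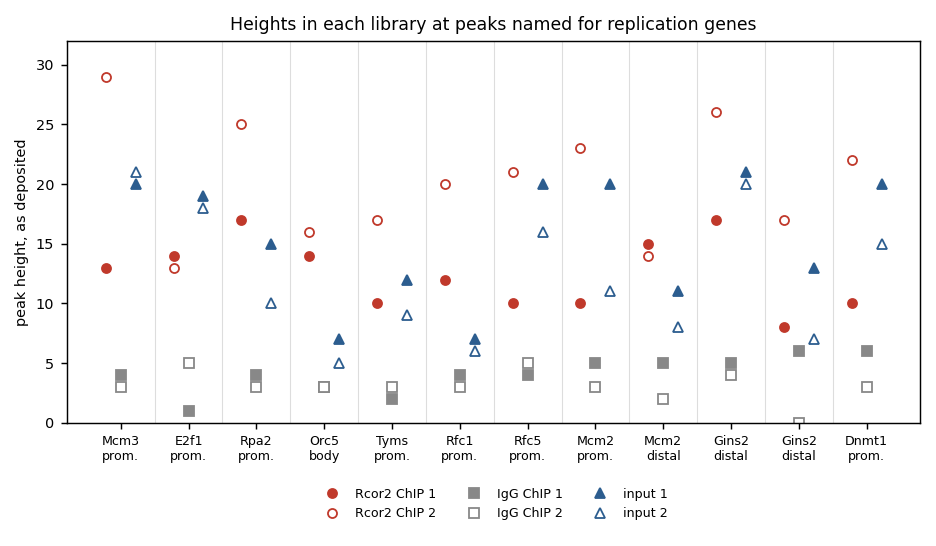
Heights as deposited (vertical axis) at the 12 peaks named for replication genes, with circles for Rcor2 ChIP, squares for IgG and triangles for input; filled marks are replicate 1 and open marks replicate 2, and the location class (promoter, gene body or distal) stands under the gene. Circles lie above squares at all 12 peaks and above both triangles at 4, those of Rpa2, Orc5, Rfc1 and the distal Mcm2 peak.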

How the data were processed

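HISAT2 2.1.0, Trim Galore and mm10 appear in the submitters' processing notes, with no step named for them. The counter, annotation, strand use and peak settings are unknown here. The authors' RNA table gives normalized counts (signal per gene), per the file headers. Every value (100%) was a whole multiple of a library's own step (tolerance 1e-04), which gave back the reads. It also holds deposited log2 fold changes, p-values, standard errors and a test score under DESeq2-like names. In the deposited peak table the authors give heights (signal), fold enrichment (ratio) and, under spoiled headers, columns read from their place as −log10 p and q. How peaks were classed and named for genes is unknown here.

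Limma-trend (limma 3.58.1, R 4.3.3) was fitted to log2(normalized count + 1) of 14324 genes whose mean reached 10, two-sided, with no replicate block and with 2 residual and 6.21 prior degrees of freedom. A Benjamini-Hochberg adjusted p under 0.05 made a call. Alternatives were edgeR 4.0.16 (quasi-likelihood, TMM) and DESeq2 1.42.0 on recovered reads, other scalings, pseudocounts, filters and blocks, and leaving out each library. With 2 libraries against 2, exact permutation reaches p = 0.333 at best.

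Members, roles, lists and motifs were chosen with earlier results of these data known. Values in every library are printed for the helicase subunits, for up to 3 called members per role by adjusted p or the most abundant, and for members with a peak or whose call changes with edgeR or the authors' test; Orc1 was added after its values were seen. Promoters are those of the 6 called members with the smallest adjusted p that have a RefSeq entry, and of members whose promoter-class peak reaches into the window. E2f1, Rfc1 and Rfc5, whose windows do not, were left out after this was seen. Of the genes, 23 had names turned into dates and were left as they stood. Figures used Python 3.11.15 and matplotlib 3.10.9.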

Additional observations from a re-analysis of the deposited data

How the results depend on the processing

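Leaving out 1 library at a time moved the number of members higher in the cKO between 1 and 31, that of all genes higher between 58 and 1532 and lower between 82 and 1921, and that of the other replication genes higher between 0 and 27 and lower between 0 and 1. By construction, a fit without a control takes the spread from the cKO pair alone, and a lone library is assumed to vary like the other group. The members' median log2 change ranged from 0.188 (without cKO replicate 1) to 0.252. The number of members higher was 23 to 27 under the other alternatives, and 0 members were lower in any alternative run. The other replication gene lower in the cKO, Rrm2b, was lost (0 lower) with TMM scaling, quantile normalization, a replicate block, edgeR, DESeq2 and the authors' test; the cause was not tested. The replicate numbers pair no samples by the labels. Same-numbered libraries deviated together (r = 0.242 over genes), and with replicate number as a block 24 members rose, with Pola2 gained and Prim1 lost. Members near 0 changed sign. Over the single-library omissions Orc3 ranged from -0.01 to 0.04, Orc4 from -0.04 to 0.02, Orc6 from -0.13 to 0.08, Prim2 from -0.08 to 0.09 and Pold2 from -0.02 to 0.06. Orc4 (-0.01) was 0.01 with TMM scaling, quantile normalization, edgeR and DESeq2, 0.0042 in the authors' test, 0.02 without control replicate 2 and 0.01 without cKO replicate 2. Orc6 was 0.08 without control replicate 2, Orc3 -0.01 and Prim2 -0.01 and Pold2 -0.02 without cKO replicate 2, and Gins4 -0.03, Prim2 -0.08 and Pold2 -0.01 without control replicate 1. Members with a peak numbered 10 (20.8%, against 19.4% of tested genes). With a −log10 q of at least 5 there were 7 (14.6%, against 12.7% of tested genes). With a mean Rcor2 height above input there were also 7 (14.6%, against 15.1%), and in the promoter class 8 (16.7%, against 8.89%). With 2 libraries a group, precision is limited. Orc1, at the lowest count of the members, had an SE of 0.15. Its log2 differences between libraries (replicate 1 minus replicate 2) were 0.323 in the cKO and -0.301 in the controls. For Pole (SE 0.083) these differences were 0.282 and 0.018. The parts of count and spread in these errors were not tested.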
